A study of Mus musculus with 6 samples.

Results

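Ribosome biogenesis and nucleolar factors are the proteins that transcribe ribosomal RNA (rRNA) in the nucleolus, modify and cleave it, and fold it with ribosomal proteins into the small and large subunits. The 40 genes described here were taken by symbol from a list of such factors, chosen with earlier results of these data known. All 40 were found among the 49584 genes of the deposited count table. They also passed the filter on low counts, which left 13474 genes for testing. The samples were leptotene/zygotene spermatocytes, germ cells at the start of meiotic prophase, sorted by flow cytometry from testes of mice at postnatal day 12. Smart-seq2, a full-length cDNA method for small amounts of RNA, gave 3 Srp68 SKO libraries, replicates 1 to 3, and 3 wild type libraries of the same cells and age. Srp68 is a protein of the signal recognition particle, which docks ribosomes making secreted and membrane proteins at the endoplasmic reticulum, and the title of the series links its loss to meiotic arrest. The labels do not spell out SKO or name a promoter, a recombinase or the deleted part, and the columns of the table write CKO in its place. Whether the libraries of a genotype were made from different mice, and from how many cells, is not stated. All p-values therefore refer to the spread among these libraries, which may be technical. Values are CPM, counts relative to library size, with the sizes adjusted by TMM, a trimmed mean of log ratios between libraries, and fold changes are SKO over wild type.

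Ribosome assembly starts when RNA polymerase I, helped by Ubtf and Rrn3, copies the rRNA genes. Small nucleolar ribonucleoproteins (snoRNPs) then guide chemical modification of the rRNA, the box C/D class by methylation and the H/ACA class by conversion of uridine to pseudouridine. A large complex, the small-subunit processome, forms on the growing transcript, while the PeBoW complex and many other factors mature the large subunit. In many cell types the genes of this pathway are targets of the transcription factor MYC and follow growth.

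The libraries held 11853738 to 12728853 counts in SKO and 14254224 to 15381473 counts in wild type, so that 3 counts corresponded to 0.247 to 0.289 CPM in SKO and 0.174 to 0.196 CPM in wild type. The lowest count of any member in any library was 27. Srp68 had 147, 70 and 72 counts in SKO replicates 1 to 3, against 337, 505 and 345 in wild type replicates 1 to 3, and its log2 fold change was −1.52 (SE 0.28; edgeR adjusted p = 0.00107). The summed level of 8 markers of leptotene and zygotene spermatocytes was 23971 to 31870 CPM in SKO and 14666 to 18370 CPM in wild type libraries, with 6 of the 8 called higher and Spo11 called lower. Differentiating spermatogonia markers summed to 157 to 190 CPM in SKO and 187 to 235 CPM in wild type. Of these 5, Sohlh2 was called lower and 0 were called higher. Markers of pachytene and later stages summed to 14.6 to 19.1 CPM in SKO and 52.7 to 71.9 CPM in wild type. Of these 6 only 3 were tested, with Ldhc and Piwil1 called lower and Tnp1 called higher. Ldhc made up most of the sum, with means of 12.7 CPM in SKO and 55.7 CPM in wild type. Tnp1 was low, with means of 2.88 CPM in SKO and 0.343 CPM in wild type. Undifferentiated spermatogonia markers (11.3 to 16.7 CPM in SKO, 10.2 to 19.4 CPM in wild type) and Sertoli cell markers (8.10 to 25.9 CPM in SKO, 7.22 to 13.9 CPM in wild type) had 0 calls. Of these markers, 4 of 5 and 4 of 6 were tested. Leydig cell markers summed to 4.86 to 9.03 CPM in SKO and 0.58 to 6.60 CPM in wild type, with Cyp17a1 and Cyp11a1 at 0 counts in all 6 libraries. Peritubular myoid markers summed to 4.61 to 13.3 CPM in SKO and 1.04 to 2.32 CPM in wild type, with Des at 0 and Acta2 called higher. Macrophage markers summed to 1.12 to 29.5 CPM in SKO and 1.80 to 2.26 CPM in wild type. Lyz2, the 1 of these 4 tested, was called higher. It had 15, 6 and 262 counts in SKO replicates 1 to 3, against 2, 6 and 33 in wild type replicates 1 to 3. Csf1r (3, 0 and 35 counts in SKO) and the myoid marker Acta2 (47, 47 and 128) were also highest in SKO replicate 3. Cd68 had 6, 6 and 8 counts in SKO, against 33, 25 and 0 in wild type. Endothelial markers summed to 0.77 to 1.86 CPM in SKO and 0.516 to 1.57 CPM in wild type, with 0 of 4 tested. Erythroid markers ran from 37.1 to 148 CPM in SKO and from 2.77 to 137 CPM in wild type, with Alas2 at 0. The part of stage or of these other cells in the differences below was not tested.

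Most ribosome biogenesis transcripts were not called different between SKO and wild type spermatocytes, and those that were called moved in both directions. The 5 genes that rose were Npm1, Nop10, Nhp2, Ncl and Ebna1bp2, the 6 that fell were Rrp9, Bop1, Nop2, Rrp1, Utp4 and Nop56, and 29 did not pass (quasi-likelihood F test of edgeR, Benjamini-Hochberg threshold 0.05). The 11 calls were 27.5% of the members, against 28.5% called over all 13474 tested genes, so their share was near the background in total and in each direction (14.1% of all genes higher and 14.4% lower). The median log2 fold change was −0.05 over the members and −0.03 over all tested genes. In 10 members every SKO library lay above every wild type library and in 8 every SKO library lay below; over all tested genes 43.8% did not overlap, 21.6% above and 22.2% below. Without SKO replicate 2 or SKO replicate 3 the members called lower numbered 3, beside 9.45% and 9.99% of all genes in those fits, and without wild type replicate 1 or wild type replicate 2 they numbered 4, beside 10.6% and 10.3%. Fewer cells of a type and less RNA per cell cannot be told apart in bulk libraries of this kind. Calls were more frequent among abundant genes across the table: with all tested genes cut by mean CPM into 4 groups of equal size, 54.3% of the highest group were called and 36.05% of the next. Of the 20 members in the highest group, 5 were called higher and 2 lower, and of the 16 members in the next, 0 were called higher and 3 lower. In both groups the share of members called was below that of all genes, a difference that was not tested. With library totals in place of TMM, 3 members were higher and 13 lower, beside 7.50% and 23.5% of all genes, and the median over all genes moved to −0.29. The median of the members was then −0.31.

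**Figure D1:**
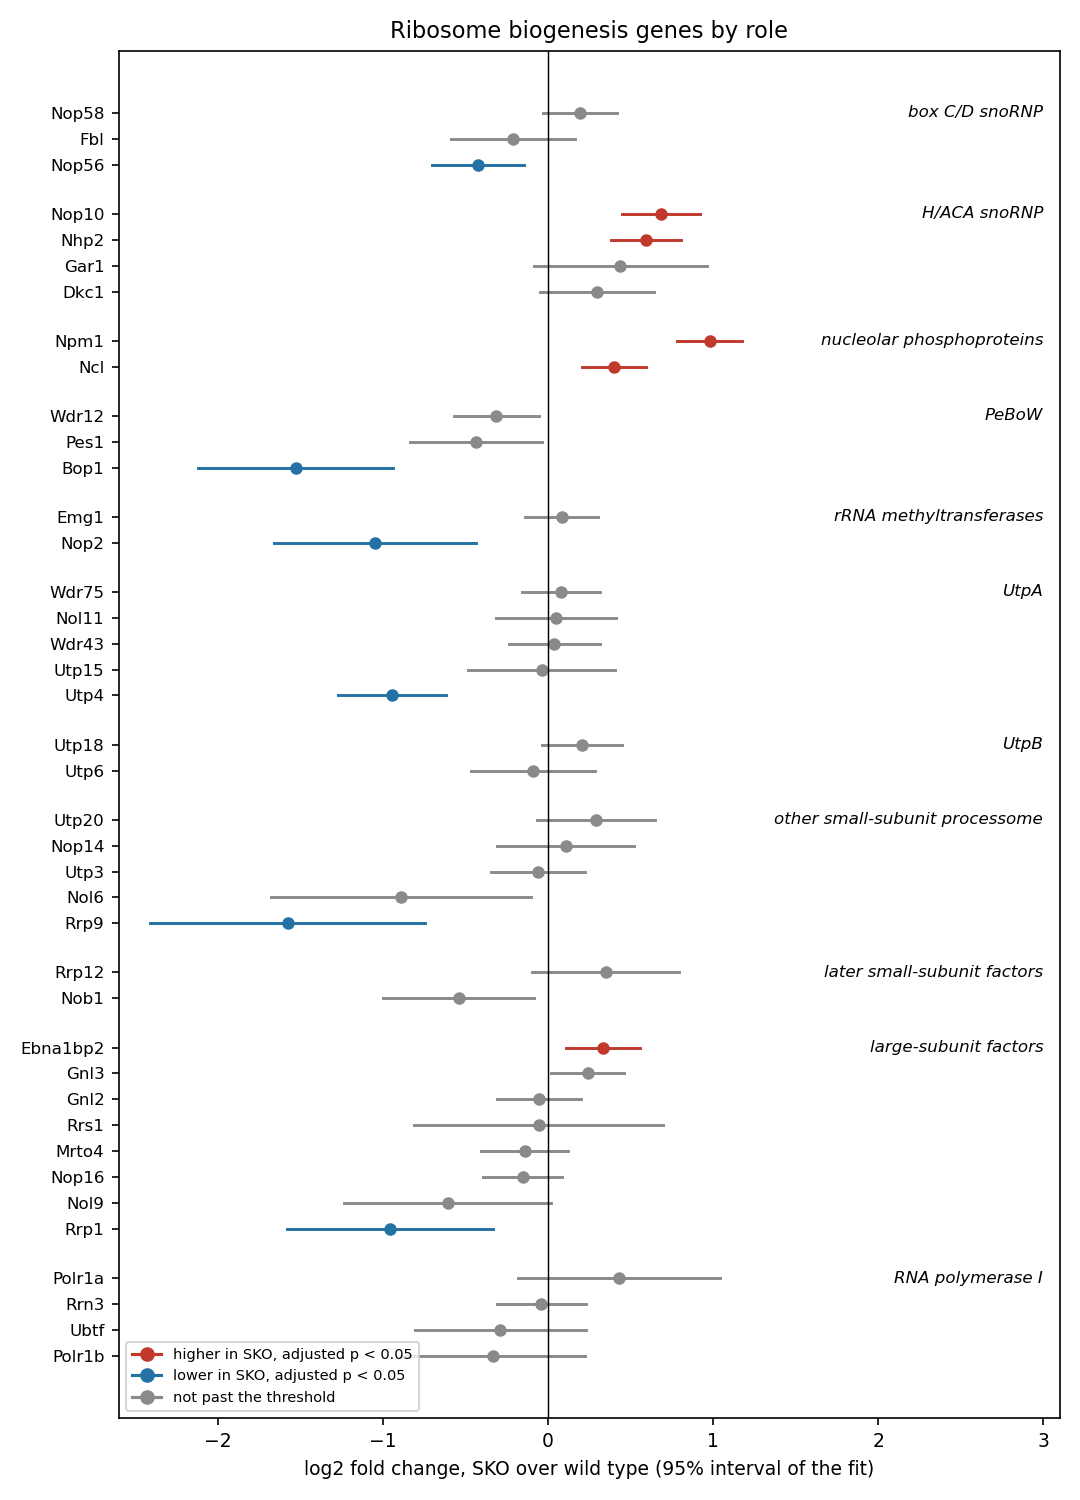
Log2 fold change (x axis, SKO over wild type) of the 40 genes, one per row and grouped by role, with the 95% interval of the edgeR fit as a line. Npm1 has the highest value, 0.98, the 4 H/ACA genes lie between 0.30 and 0.68, and Rrp9 (−1.58) and Bop1 (−1.53) have the lowest values.

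Of the 29 genes that did not pass, 16 had a 95% interval that lay wholly within a 1.5-fold change in either direction and 25 within 2-fold. In 5 genes that did not pass the interval lay on one side of 0: Pes1, Wdr12, Nol6 and Nob1 below it and Gnl3 above it.

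Levels per exon length, as RPKM (CPM per kilobase of annotated exon), differed between members by orders of magnitude in each genotype. Npm1 was first at 952 RPKM in SKO and 483 RPKM in wild type, followed by Nop10 (626 RPKM in SKO and 389.9 RPKM in wild type) and Nhp2 (301 RPKM in SKO and 199.6 RPKM in wild type). At the other end stood Nol6, a structural protein of the small-subunit processome (0.985 RPKM in SKO and 1.83 RPKM in wild type), and Polr1a, the largest subunit of RNA polymerase I (1.36 RPKM in SKO and 1.01 RPKM in wild type). The order was similar in the genotypes, with 29 of the 40 genes at ranks no more than 3 apart. Among larger shifts, Utp4 stood at rank 16 in SKO and 10 in wild type, and Gar1 at rank 22 in SKO and 30 in wild type. Exon length depends on the annotated isoforms: on the length of the longest protein-coding transcript Emg1 ranked 3 in both genotypes, in place of 6 in SKO and 5 in wild type.

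The sequence around the gene starts was compared for motifs, because MYC binds the E-box CACGTG and the pathway is known as a target of it. RefSeq promoter windows on GRCm38.p6, from 250 bases before to 50 bases after the RefSeq gene start, were matched for 32 of the 40 members. The RefSeq start can differ from the GENCODE start used for gene positions, by 1346 bases in Rrp9 and 320 in Wdr43. CACGTG, which reads the same on both strands, stood in 8 of these 32 windows (25.0%), against 10.6% of the 9621 windows of tested genes and 7.67% of all 20626. It stood in 0 of the 4 matched members called higher, in 2 of 5 called lower and in 6 of 23 not called. In Pes1, Utp4, Wdr43 and Utp20 it starts after the RefSeq start, by 2, 15, 17 and 37 bases. The ETS motif CCGGAAG, on either strand, stood in 9 of 32 member windows (28.1%), against 20.04% of windows of tested genes. The other motifs were also sought on both strands and are set against the windows of tested genes. CCAAT stood in 10 of 32 (31.2%, against 39.996%), TATAAA in 3 (9.38%, against 6.85%), and TGATGNAA, a composite motif bound by ATF4 with partners, in 1, that of Nop14 (3.12%, against 2.03%). The YY1 motif AAGATGGC and the NRF1 motif stood in 0 of 32, against 5.10% and 2.26%. These matches describe letters in the windows only. Shown here, from RefSeq, are the windows of both genes that were called lower and hold an E-box, of Rrn3, which holds 2 and was not called, and of Nop10, called higher with none, each on GRCm38.p6 and read 5′ to 3′ with the E-box in capitals.
Utp4, chr8:106893390-106893689, plus strand: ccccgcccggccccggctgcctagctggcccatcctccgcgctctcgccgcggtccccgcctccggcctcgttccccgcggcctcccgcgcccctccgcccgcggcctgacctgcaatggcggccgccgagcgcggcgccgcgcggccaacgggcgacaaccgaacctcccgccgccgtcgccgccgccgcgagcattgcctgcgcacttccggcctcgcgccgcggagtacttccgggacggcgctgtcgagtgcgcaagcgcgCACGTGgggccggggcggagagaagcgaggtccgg
Nop2, chr6:125131633-125131932, plus strand: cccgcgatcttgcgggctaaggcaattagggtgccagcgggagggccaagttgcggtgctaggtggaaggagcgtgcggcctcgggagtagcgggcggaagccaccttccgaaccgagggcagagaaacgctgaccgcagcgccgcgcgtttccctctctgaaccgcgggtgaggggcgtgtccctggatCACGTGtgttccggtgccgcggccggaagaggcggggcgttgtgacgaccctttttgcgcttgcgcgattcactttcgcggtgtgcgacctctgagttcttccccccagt
Rrn3, chr16:13780449-13780748, plus strand: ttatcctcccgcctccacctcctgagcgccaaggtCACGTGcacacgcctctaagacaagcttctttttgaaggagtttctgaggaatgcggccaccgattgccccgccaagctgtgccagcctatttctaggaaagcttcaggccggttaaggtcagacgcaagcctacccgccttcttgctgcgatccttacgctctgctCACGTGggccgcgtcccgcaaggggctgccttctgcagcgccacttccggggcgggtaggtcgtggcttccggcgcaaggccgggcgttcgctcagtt
Nop10, chr2:112261676-112261975, plus strand: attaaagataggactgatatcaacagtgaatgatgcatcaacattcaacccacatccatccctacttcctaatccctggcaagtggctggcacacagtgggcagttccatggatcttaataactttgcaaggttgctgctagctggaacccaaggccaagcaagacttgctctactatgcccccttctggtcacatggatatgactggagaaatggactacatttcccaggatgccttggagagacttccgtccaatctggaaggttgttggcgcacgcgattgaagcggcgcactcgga
In Utp4 the motif starts 15 bases after the RefSeq gene start and in Nop2 it starts 60 bases before it. The motifs of Rrn3 start 215 and 48 bases before the RefSeq start. The GENCODE start lies 4, 26 and 9 bases from the RefSeq start in Utp4, Nop2 and Rrn3.

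The 4 members of the RNA polymerase I group, Polr1a, Polr1b, Rrn3 and Ubtf, did not pass the test. Polr1a, the catalytic subunit, was at 15.6, 17.4 and 15.4 CPM in SKO libraries and at 7.67, 11.8 and 16.4 CPM in wild type libraries, with a log2 fold change of 0.43 (95% interval −0.19 to 1.04; edgeR adjusted p = 0.297). Wild type replicate 3 lay within the SKO range and the other wild type replicates below it. Polr1b, the second largest subunit, was at 11.6, 8.38 and 12.3 CPM in SKO, against 13.1, 13.3 and 14.2 CPM in wild type, so the groups did not overlap, but the change of −0.33 had an edgeR adjusted p of 0.378. Rrn3, the initiation factor that couples the polymerase to growth signals, averaged 79.1 ± 5.81 CPM in SKO and 81.4 ± 4.39 CPM in wild type (SD, n = 3 each), and Ubtf, which binds the rRNA gene promoter, 14.9 ± 2.47 CPM in SKO and 18.1 ± 3.09 CPM in wild type.

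Of the 4 H/ACA proteins, Nop10 and Nhp2 rose and 0 fell, with log2 fold changes of 0.30 to 0.68 in the class. Over all tested genes 14.1% were called higher and 14.4% lower. Nop10, the smallest core protein, had 607, 705 and 772 CPM in SKO libraries, against 420, 405 and 473 CPM in wild type libraries (log2 fold change 0.68, SE 0.11; edgeR adjusted p = 0.000374; chromosome 2, 112261926 to 112263269, GRCm38). Nhp2, which binds the guide RNA, had 351, 346 and 338 CPM in SKO, against 212, 231 and 242 CPM in wild type (0.59, SE 0.10; adjusted p = 0.000484; chromosome 11, 51619735 to 51623714). In both genes the lowest SKO library was well above the highest wild type library. Dkc1, the pseudouridine synthase dyskerin, averaged 51.7 ± 3.61 CPM in SKO and 42.1 ± 6.28 CPM in wild type (0.30; adjusted p = 0.191), and Gar1, a further core protein, 15.3 ± 0.617 CPM in SKO and 11.3 ± 1.61 CPM in wild type (0.44; adjusted p = 0.204).

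In the box C/D class Nop56 fell and the other 2 genes did not pass. Nop56, a scaffold protein of the particle, had 109.6, 89.0 and 96.9 CPM in SKO, against 147, 133 and 117 CPM in wild type (log2 fold change −0.43, SE 0.13; edgeR adjusted p = 0.0244; chromosome 2, 130274430 to 130279313), and every SKO library lay below every wild type library. Its call was lost in 4 of the 6 fits that left out 1 library: without SKO replicate 2 (−0.36; adjusted p = 0.124) or 3 (−0.42; 0.0726) and without wild type replicate 1 (−0.34; 0.106) or 2 (−0.42; 0.0641). Nop58, its paralogous partner in the particle, had 271, 244 and 234 CPM in SKO, against 209.8, 216 and 229 CPM in wild type (0.19; adjusted p = 0.188), so the groups of Nop58 stood in the opposite order without passing. Fbl, the methyltransferase fibrillarin, averaged 32.7 ± 1.75 CPM in SKO and 37.9 ± 5.97 CPM in wild type (−0.21; adjusted p = 0.409).

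Both abundant nucleolar phosphoproteins rose. Npm1, which encodes nucleophosmin, a chaperone of ribosome export and of histones, had 2377, 2609 and 2622 CPM in SKO libraries, against 1263, 1201 and 1398 CPM in wild type libraries (chromosome 11, 33152287 to 33163206). Its SKO level was 197% of that in wild type, and the log2 fold change, 0.98 (SE 0.09; edgeR adjusted p = 6.12e-06), stood above that of 91% of all tested genes. Ncl, nucleolin, which binds rRNA and histones, had 1086, 1087 and 1005 CPM in SKO, against 752, 854 and 803 CPM in wild type (0.40, SE 0.09; adjusted p = 0.0045; chromosome 1, 86344719 to 86359400). The SKO libraries of both genes lay above all wild type libraries. With library totals Ncl was at 0.14 and did not pass (adjusted p = 0.268), while Npm1 stood at 0.72 with its call held. Npm1 has 4 processed pseudogenes with at least 95% identity over 200 bases or more, and the 3 in the table took 1.06% of the joint counts.

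**Figure D2:**
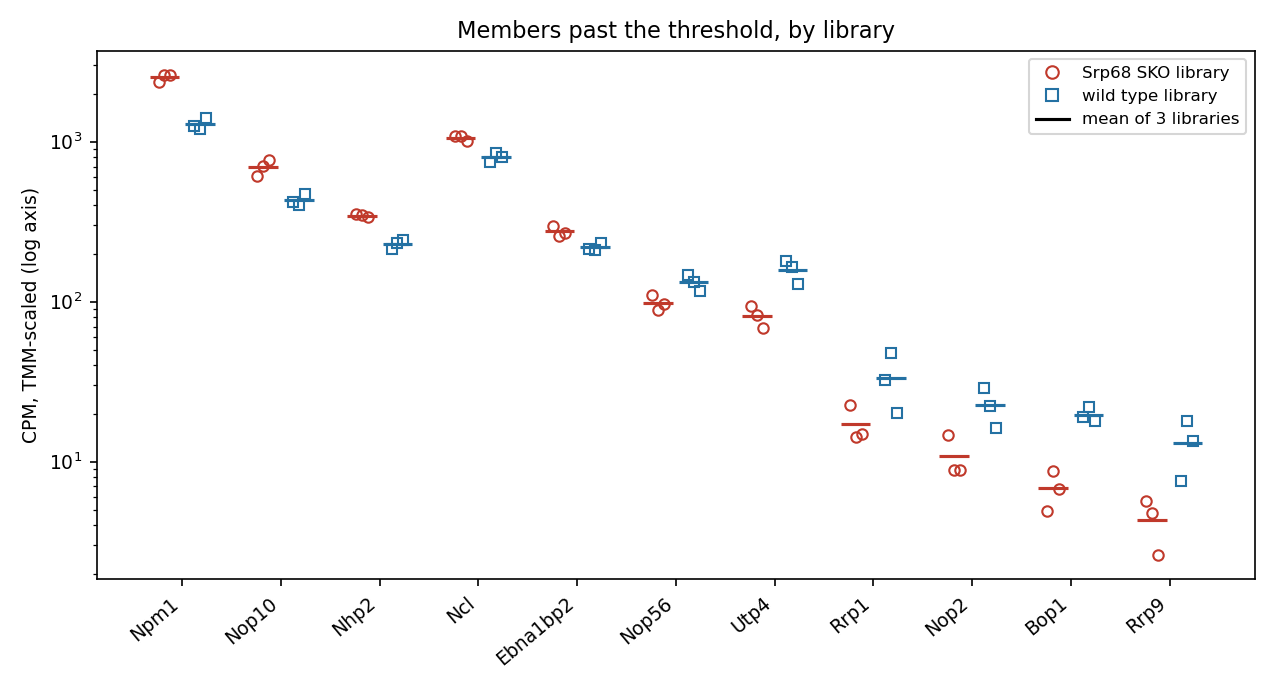
CPM on a log axis for the 11 genes past the threshold, with a circle for each of 3 SKO libraries, a square for each of 3 wild type libraries and a bar at each mean. Genes run from the highest to the lowest log2 fold change, the rising ones lie above 200 CPM in every library, and 4 of the 6 falling ones lie below 50 CPM in every library.

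The summed level of the 40 genes was 7751, 7906 and 7799 CPM in SKO libraries, against 6018, 5903 and 6024 CPM in wild type libraries, a ratio of 1.31. A split made after the values were seen, around genes with high fold changes, describes this sum and is not a test. Npm1 and Ncl together summed to 3595 ± 120 CPM in SKO and 2090 ± 97.9 CPM in wild type (SD, n = 3 each), a ratio of 1.72, and the 4 H/ACA genes to 1107 ± 75.6 CPM in SKO and 715 ± 45.5 CPM in wild type, a ratio of 1.55. The other 34 genes summed to 3117 ± 135 CPM in SKO and 3177 ± 128 CPM in wild type, a ratio of 0.981. As a share of all counts, unscaled, the 40 genes held 0.713 ± 0.0282% in SKO and 0.654 ± 0.0098% in wild type libraries, a ratio of 1.09. Without Npm1 and Ncl, but with the 4 H/ACA genes kept, the unscaled share was 0.409, 0.380 and 0.366% in SKO replicates 1 to 3. In wild type replicates 1 to 3 it was 0.436, 0.432 and 0.408%. With scaling, the 2 sets that make up this share, the 4 H/ACA genes and the other 34, had ratios of 1.55 and 0.981. The level of these genes relative to wild type thus depended on the scaling.

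**Figure D3:**
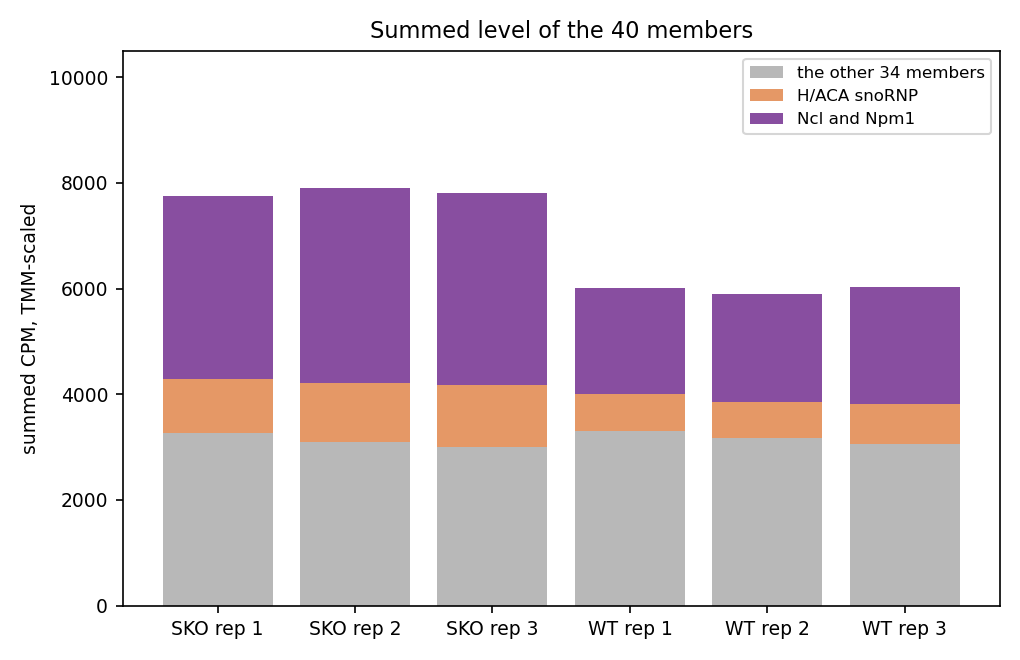
Summed TMM-scaled CPM of the 40 genes in each of the 6 libraries, stacked by gene set. The SKO bars reach 7751 to 7906 and the wild type bars 5903 to 6024, and the grey part, the other 34 genes, is of like height in both genotypes.

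Among the rRNA methyltransferases and the PeBoW complex, 1 gene of each fell. Nop2, which methylates a cytosine of large-subunit rRNA, had 14.7, 8.94 and 8.85 CPM in SKO, against 28.7, 22.4 and 16.2 CPM in wild type (log2 fold change −1.05, SE 0.29; edgeR adjusted p = 0.0134; chromosome 6, 125131909 to 125144753). The groups did not overlap, and the gap between SKO replicate 1 and wild type replicate 3 was small; the call was lost without SKO replicate 2 (−0.93; adjusted p = 0.0673) or 3 (−0.92; 0.0605) or wild type replicate 1 (−0.83; 0.0783). Emg1, which methylates a pseudouridine of small-subunit rRNA, had 439, 409.6 and 365 CPM in SKO, against 404, 360 and 383 CPM in wild type, with overlapping groups (0.08; adjusted p = 0.601).

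Bop1, the scaffold of PeBoW, had 4.94, 8.75 and 6.74 CPM in SKO libraries, against 19.1, 21.8 and 18.01 CPM in wild type libraries (chromosome 15, 76452989 to 76477277). Its level was 34.7% of wild type, a log2 fold change of −1.53 (SE 0.28; edgeR adjusted p = 0.000908), and the highest SKO library was below the lowest wild type library by more than the range within either genotype. Wdr12, a WD40 partner of Bop1, had 135, 135 and 127 CPM in SKO, against 189, 154 and 151 CPM in wild type (−0.31; adjusted p = 0.0639). Pes1, the third subunit, averaged 24.9 ± 3.56 CPM in SKO and 33.8 ± 2.39 CPM in wild type (−0.44; adjusted p = 0.0969). All SKO libraries lay below all wild type libraries in each of the 3 genes, of which only Bop1 passed; Wdr12 passed without wild type replicate 3 (−0.37; adjusted p = 0.0483).

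The 12 genes of the small-subunit processome, the assembly that cleaves the precursor to release small-subunit rRNA, had 2 that fell, 0 that rose and 10 that did not pass. The 16.7% called lower stood near the 14.4% called lower over all tested genes, of which 14.1% were called higher. In UtpA, the complex that first binds the transcript, Utp4 fell, with 94.6, 82.3 and 68.6 CPM in SKO libraries, against 180, 164 and 129 CPM in wild type libraries (−0.95, SE 0.15; edgeR adjusted p = 0.000367; chromosome 8, 106893636 to 106923088). Every SKO library of Utp4 was below every wild type library. The other 4 members in UtpA were between −0.04 and 0.08 on the log2 scale: Wdr75 had 229, 237 and 232 CPM in SKO, against 250.2, 201 and 210 CPM in wild type, and Wdr43, Nol11 and Utp15 had log2 fold changes of 0.04, 0.05 and −0.04. In each of these 4 genes the groups overlapped.

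UtpB, a second early complex, is represented by Utp18 and Utp6. Utp18 had 172, 187 and 170 CPM in SKO, against 166, 156 and 138 CPM in wild type, without overlap (log2 fold change 0.20; edgeR adjusted p = 0.199). Utp6 had 28.5, 32.7 and 29.4 CPM in SKO, against 34.3, 33.3 and 29.1 CPM in wild type, with overlap (−0.09; adjusted p = 0.737). Of the other processome genes, Rrp9, a protein of the U3 snoRNP, had 5.68, 4.75 and 2.60 CPM in SKO, against 7.60, 17.96 and 13.5 CPM in wild type, separate groups with a wide spread in wild type (−1.58, SE 0.39; adjusted p = 0.00751; chromosome 9, 106475963 to 106485424). Nol6 had 4.11, 5.12 and 6.26 CPM in SKO, against 6.19, 8.75 and 13.8 CPM in wild type, where the lowest wild type library lay just under the highest SKO library (−0.89; adjusted p = 0.0851, and 0.0467 without wild type replicate 1). Utp3, Utp20 and Nop14, processome proteins with changes of −0.06, 0.29 and 0.11, did not pass, and their groups overlapped.

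The 2 members that act later on the small subunit, Nob1 and Rrp12, did not pass. Nob1, the endonuclease that makes the final cut of small-subunit rRNA, had 26.2, 22.1 and 19.4 CPM in SKO, against 39.6, 33.8 and 25.3 CPM in wild type (log2 fold change −0.54; edgeR adjusted p = 0.0736), and passed without wild type replicate 3 (−0.70; adjusted p = 0.0268). Only SKO replicate 1 reached into the wild type range. Rrp12, an export factor, had 22.5, 19.6 and 21.0 CPM in SKO, against 15.9, 17.1 and 16.4 CPM in wild type, without overlap (0.35; adjusted p = 0.237).

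Of the 8 large-subunit factors, Ebna1bp2 rose, Rrp1 fell and 6 did not pass. This was 12.5% in each direction, near the 14.1% higher and 14.4% lower over all tested genes. Ebna1bp2, a nucleolar protein of early large-subunit processing, had 299, 259 and 269 CPM in SKO libraries, against 213, 210 and 233 CPM in wild type libraries (log2 fold change 0.33, SE 0.10; edgeR adjusted p = 0.0274; chromosome 4, 118620799 to 118627776). The groups did not overlap, but the call held only without wild type replicate 3 among the 6 fits that left out 1 library, the other values being 0.27 to 0.37 with adjusted p of 0.0526 to 0.0965. Rrp1, known from yeast for large-subunit processing, had 22.5, 14.2 and 14.8 CPM in SKO, against 32.4, 47.7 and 20.1 CPM in wild type (−0.96, SE 0.29; adjusted p = 0.0237; chromosome 10, 78400384 to 78413043). Wild type replicate 3 of Rrp1 lay below SKO replicate 1, and the call was lost without SKO replicate 2 (−0.85; adjusted p = 0.108) or 3 (−0.87; 0.0962) and without wild type replicate 1 (−0.98; 0.0615) or 2 (−0.61; 0.154).

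Gnl3, the GTPase nucleostemin, which is abundant in proliferating stem cells, averaged 286 ± 10.9 CPM in SKO and 242 ± 21.6 CPM in wild type (SD, n = 3 each; log2 fold change 0.24; edgeR adjusted p = 0.101, and 0.043 without wild type replicate 3). Its relative Gnl2 averaged 154 ± 8.00 CPM in SKO and 159.9 ± 19.4 CPM in wild type, and Mrto4, which acts in assembly of the ribosomal stalk, 147 ± 12.7 CPM in SKO and 162 ± 19.7 CPM in wild type. Nop16 (−0.15), Rrs1 (−0.06), which helps bring a small rRNA into the large subunit, and Nol9 (−0.61), a polynucleotide kinase of rRNA processing, did not pass. Rrs1 was at 6.48 to 15.3 CPM in wild type, and its interval ran from −0.81 to 0.70.

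Members with a low fold change tended to have transcripts rich in G and C, as did genes at large. The median GC content of the longest protein-coding transcript was 46.5% in the 5 genes that rose, 55.4% in the 6 that fell and 50.3% in the 29 that did not pass. Across the 40 genes the correlation of log2 fold change with GC content was −0.54 (Pearson) and −0.45 (Spearman), and across 13452 tested genes −0.31 and −0.35; these are correlations across genes within the same 6 libraries, which are not independent replicates. With the tested genes cut by GC content into 4 groups of equal size, in the group with the highest GC content 23.4% were called lower and 6.24% higher, with a median of −0.48, and of the 12 members in it 4 were called lower, 1 (Nhp2) was called higher and the median was −0.25. In the group with the lowest GC content 5.71% of genes were called lower and 26.2% higher, and of 7 members 2 were called higher and 0 lower.

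**Figure D4:**
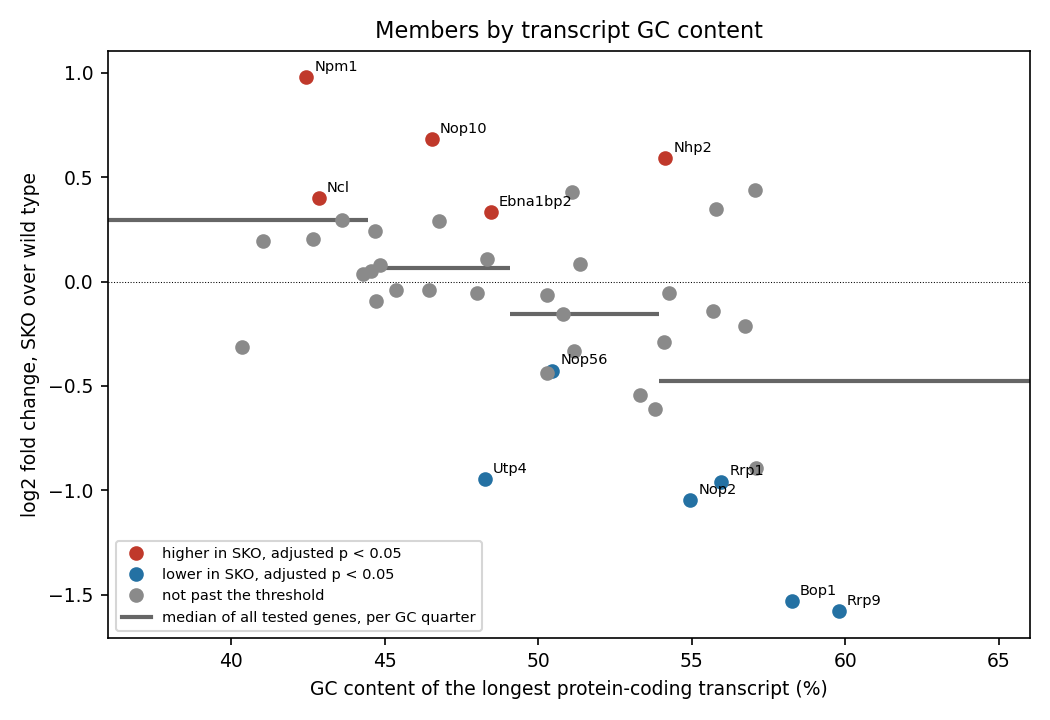
Log2 fold change of the 40 genes (y axis) against transcript GC content in percent (x axis), with the 11 called genes named and a black line at the median of all tested genes in each of 4 groups of GC content. Bop1 and Rrp9, at 58.2% and 59.8% GC, lie below the line of their group, while Nhp2, at 54.1%, lies above it.

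A fit in which the trend of each library with transcript GC content and annotated exon length was taken out changed which members passed. Under this correction 8 genes were higher and 2 lower, beside 13.3% and 10.1% of 13452 genes, and the median of the members was 0.10 against 0.05 over all genes. Npm1 (0.89; edgeR adjusted p = 2.70e-06), Nhp2 (0.77; 4.29e-05), Nop10 (0.60; 0.000659) and Ebna1bp2 (0.55; 0.000943) kept their calls, as did Utp4 (−0.73; 0.00132). Gar1 (1.03; 0.00765), Rrp12 (0.91; 0.00463), Mrto4 (0.51; 0.00165) and Emg1 (0.40; 0.00664) passed as higher and Wdr12 (−0.70; 0.00138) as lower. Ncl (0.16; 0.223), Bop1 (−0.76; 0.0637), Rrp9 (−0.80; 0.117), Nop2 (−0.44; 0.244), Rrp1 (−0.31; 0.412) and Nop56 (−0.12; 0.527) no longer passed. Of the 4 H/ACA genes, 3 were then higher, Dkc1 standing at 0.25 (edgeR adjusted p = 0.284). Among genes past the threshold with or without the correction, Mrto4 changed sign. Sign changes of genes that passed in neither fit are not listed.

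**Figure D5:**
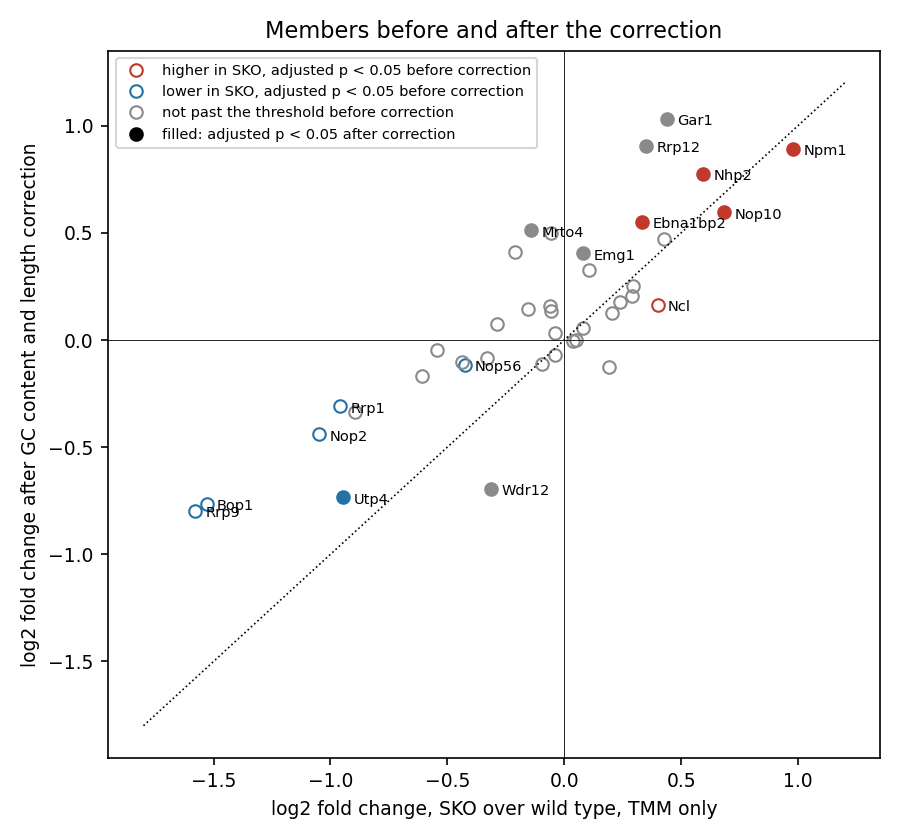
Log2 fold change of the 40 genes with TMM scaling only (x axis) and under the correction for GC content and length (y axis), with the dotted line at equal values and filled points past the threshold after correction. Npm1, Nop10, Nhp2, Ebna1bp2 and Utp4 pass on both axes, and most of the other falling genes move toward 0.

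The members share few features of position. They lie on 18 chromosomes. In 6 members, Nop56, Nop58, Ncl, Gnl3, Wdr43 and Dkc1, 19 annotated snoRNA genes lie within the bounds of the gene, 5 of them in Nop56 and 4 in Nop58. Of these 6 members, Ncl rose, Nop56 fell and the other 4 did not pass. Exons of 16 members overlap those of another gene, in 4 of them over more than 5% of the exon length. These are Nol11 (8.16%), Emg1 (7.21%) and Nop14 (5.28%), each on the opposite strand, and Nop56 (8.00%) on the same strand. Without a stated strand setting, reads in the opposite-strand overlaps are uncertain. In the same-strand overlap of Nop56 a strand setting would not separate the reads.

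Beyond the 40 genes, a wider list of 142 ribosome assembly genes gave 27 higher and 40 lower among 139 tested, 48.2% called against 28.5% over all genes. The list was chosen with earlier results of these data known, so its shares are a description and not a test. By direction, 19.4% of the list were higher and 28.8% lower, against 14.1% and 14.4% of all genes. The list is rich in abundant genes: 79 of the 139 lay in the highest of the 4 groups by mean CPM. There 51.9% of them were called, 25 higher and 16 lower, against 54.3% of all genes. Of the 46 in the next group 47.8% were called, 2 higher and 20 lower, against 36.05%. Of the 12 in the group below that 33.3% were called, 0 higher and 4 lower, against 18.1%. The lower genes of the whole list numbered 26 without SKO replicate 2, 25 without SKO replicate 3 and 26 without wild type replicate 2. Those over all genes numbered 1373, 1449 and 1451 in these fits, against 1937 with all libraries. In the small-subunit group of the list, 7 of 45 (15.6%) were higher and 16 (35.6%) lower, with a median of −0.43 on the log2 scale. In its large-subunit group 8 of 52 (15.4%) were higher and 15 (28.8%) lower, with a median of −0.04. RNA polymerase I subunits and factors had 3 of 12 higher and 3 lower, snoRNP assembly factors 1 of 8 higher and 2 lower, and the exosome and RNase MRP, nucleases that trim and cut rRNA, 8 of 22 higher and 4 lower. With GC content and length corrected, 28 of the wider list were higher and 17 lower, beside 13.3% and 10.1% of all genes in that fit.

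The called genes of the wider list with the smallest p are named here. Esf1, a nucleolar protein, averaged 859.7 ± 99.8 CPM in SKO and 446 ± 56.6 CPM in wild type (SD, n = 3 each; edgeR adjusted p = 5.08e-05), and Mphosph10, a U3 snoRNP protein, 297 ± 28.5 CPM in SKO and 175 ± 12.2 CPM in wild type (adjusted p = 0.000167). Fcf1, C1d and Exosc8 also rose, with log2 fold changes of 0.69, 0.77 and 0.54; C1d and Exosc8 belong to the exosome and its cofactors. Among the falling genes, the UtpB component Tbl3 averaged 22.0 ± 3.58 CPM in SKO and 58.4 ± 6.36 CPM in wild type (−1.41; adjusted p = 5.94e-05), and Noc4l, which acts with Nop14, 23.5 ± 8.89 CPM in SKO and 96.0 ± 29.0 CPM in wild type (−2.03; adjusted p = 9.27e-05). Ddx56, an RNA helicase (−1.75), Ccdc86 (−1.29) and Ruvbl2, an ATPase of snoRNP assembly (−1.04), fell as well.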

How the data were processed

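Poly(A) RNA of 6 Smart-seq2 libraries was sequenced, 3 Srp68 SKO and 3 wild type, per the labels. The submitters' processing notes name FastQC, Trim Galore 0.6.4, HISAT2 2.0.5 and the builds GRCm38 and mm10; the sources used here do not give the counting tool, strand setting or annotation. The authors deposited 1 table of whole-number read counts for each gene, without normalization. Columns written CKO were taken as SKO by genotype and replicate number, the series having 1 knockout group. The labels name no molecular identifiers, so PCR copies may count as reads, and values set from 3 counts cover counting error only. GENCODE vM21 (GRCm38) gave symbols and positions for 49325 genes.

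The tests were run with edgeR 4.0.16 (R 4.3.3): filterByExpr by genotype, TMM, and the two-sided quasi-likelihood test with genotype as the only term, adjusted by Benjamini-Hochberg over 13474 genes, with 0.05 as the threshold. Standard errors were derived from that fit, as the absolute log2 fold change divided by the square root of the F statistic. The 95% intervals were built from these with a t quantile. The script was tested on simulated data. CPM and RPKM were computed from the deposited counts. Within genotypes, libraries stood further apart than sampling noise (chi-square over degrees of freedom 12.0 to 22.2), so no 2 were treated as 1 library deposited again; this does not show that they came from different animals. Copies of members were sought with BLAST 2.17.0+. The correction for GC content and length used a loess curve (span 0.3) for each library.

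The members, role groups and lists were chosen with earlier results of these data known. Library values are given for the 2 members of each role group with the smallest p, and of the wider list the 5 called genes with the smallest p in each direction are named. The wider list was matched for 141 of 142 symbols, and Ddx54 and Rpp25 did not pass the filter. Alternatives were other scalings, filters, tests (DESeq2 1.42.0, limma-voom of limma 3.58.1), a replicate block, each library left out and a threshold of 0.01; the RPKM on coding transcript length and the addition of pseudogene counts were chosen after seeing the data.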

Additional observations from a re-analysis of the deposited data

How the results depend on the processing

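Of the 11 called genes, Npm1, Nop10, Nhp2 and Utp4 kept their calls under all 19 alternatives, as did 18 of the 29 without a call. DESeq2 size factors, upper-quartile factors, no filter, DESeq2, limma-voom, robust fitting and added pseudogene counts gave the same 5 higher and 6 lower members, and a filter of 5 CPM in 3 libraries 5 and 8. Library totals gave 3 and 13 members, 9 and 61 of the wider list, 1010 and 3168 of all genes (24.2% of calls higher in place of 49.5%) and a member median of −0.31. The GC content and length correction gave 8 and 2 members, 17 lower of the wider list and a median of 0.10. Over all genes 13.3% were higher and 10.1% lower in that fit. With the replicate block added it gave 8 and 3 members (Bop1 at −0.81, edgeR adjusted p = 0.0478), 21 lower of the wider list and 0.10. Over all genes 13.7% were then higher and 10.4% lower. Mrto4, at −0.14, stood at 0.51 in both. At 0.01, 3 members, 20 of the wider list and 1142 of all genes were lower, and 1230 were higher. Leaving out 1 library gave 4 to 6 members higher and 3 to 8 lower, 20 to 25 and 25 to 40 of the wider list, 1361 to 1916 and 1373 to 1851 of all genes, and a median of −0.10 to −0.01. The replicate block alone gave 5 and 6 members, with 1976 and 1991 of all genes; same-numbered libraries did not deviate together (correlations 0.033, −0.042 and 0.063), so the numbers were not taken to pair the samples. Beyond the corrections' own construction, the cause of these shifts was not tested. Rrp9, Nol6 and Rrs1 had the widest intervals of the members; the part of depth in this was not tested.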
